A study of Homo sapiens with 10 samples.

Results

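SRC-family kinases are tyrosine kinases on the inner face of the plasma membrane. They pass signals from growth factor receptors, integrins and, in lymphocytes, antigen receptors. CSK, the C-terminal SRC kinase, holds them inactive by phosphorylating a tyrosine in their tail, and phosphatases release them by removing that phosphate. SRC, YES1 and FYN are found in most tissues, LYN is best known from blood cells but is also made by epithelia, LCK is the kinase that starts T cell receptor signalling, FGR belongs to myeloid cells, and FRK is a more distant epithelial relative. PTK2B (PYK2) is a focal adhesion kinase that binds and activates SRC-family members. These 9 genes were followed by their symbols in the read counts, of 52402 symbols in all. LCK was chosen by its read counts, which leave the floor when 3 miRNA agents are given together, so its levels in that group and in the control are a description and were not tested.

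The counts come from BEAS2B, a human bronchial epithelial cell line labelled wild type. Cells were transfected with Lipofectamine 2000 and received a scrambled control (miRcontrol), a miR-3124-5p mimic (miR3124_mimic), a miR-200b-3p mimic (miR200b_mimic) or a miR-92b inhibitor (miR92b_inhibitor), each at 50 nM, or these 3 agents together (mixed, amounts of each not given in the sources used here). RNA was taken after 48 h, and each of the 5 groups holds 2 libraries. Nothing says that the 2 libraries of a group were separate transfections, so p-values measure the spread between these libraries, which may be technical.

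Library totals ranged from 13587666 to 18503890 counts, and RLE factors from 0.985 to 1.016. Levels are CPM, read counts divided by the normalized library size, given as mean ± SD over 2 libraries. Log2 fold changes come from edgeR's quasi-likelihood fit over all 14884 genes that passed its filter on low counts, and a gene was called at a Benjamini-Hochberg adjusted p under 0.05. The SE of a log2 fold change was derived from the test, as its absolute value divided by the square root of the F statistic. In control cells, the epithelial keratins KRT8 (814 ± 0.168 CPM) and KRT18 (628 ± 13.2 CPM) were high, while CDH1 (E-cadherin, 0.146 ± 0.037 CPM), EPCAM (0.289 ± 0.239 CPM) and KRT5 (0.174 ± 0.0775 CPM) were near 0. Of mesenchymal genes, vimentin (VIM, 3800 ± 132 CPM) and FN1 (fibronectin, 3260 ± 117 CPM) were abundant. ACTA2 was low (1.87 ± 0.221 CPM), and COL1A2 (0.148 ± 0.128 CPM), COL3A1 (0.0286 ± 0.0405 CPM) and S100A4 (0.147 ± 0.0457 CPM) were near 0.

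A miRNA recognises messenger RNAs mainly through its seed, bases 2 to 8. The mature sequences (RefSeq, GRCh38.p14) are shown because the 3 treatments differ by them, with the seed in capitals. Both arms of miR-92b are given, since the label of the inhibitor names none.
hsa-miR-3124-5p: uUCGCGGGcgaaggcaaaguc
hsa-miR-200b-3p: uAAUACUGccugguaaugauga
hsa-miR-92b-3p: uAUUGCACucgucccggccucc
hsa-miR-92b-5p: aGGGACGGgacgcggugcagug
The 4 seeds differ from each other. All lie on the plus strand of chromosome 1: miR-3124-5p at chr1:248826383-248826403, miR-200b-3p at chr1:1167160-1167181, miR-92b-3p at chr1:155195237-155195258 and miR-92b-5p at chr1:155195196-155195217.

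The word of 7 bases that pairs with each seed was looked for in each member's 3′UTR, taking the transcript with the longest coding sequence (GENCODE v29). The word for miR-3124-5p, CCCGCGA, was in 0 of 9 members, and in 0.487% of 12119 tested genes with a 3′UTR. The word for miR-200b-3p, CAGTATT, was in 1 of 9, FRK, against 17.2% of the genes. The word for miR-92b-3p, GTGCAAT, was in 0 of 9, against 11.0%, and that for miR-92b-5p, CCGTCCC, in 1 of 9, SRC, against 3.6%. FRK held its word at 2 places, bases 3316 and 8520 of the 3′UTR, and SRC at 1. For each of these 2 members 1 site is printed, for FRK the one at base 8520. The word is in capitals, to show where a seed word met a member transcript.
SRC, miR-92b-5p word: gtcccccccgctCCGTCCCccaaacatg
FRK, miR-200b-3p word: ttcctttataaaCAGTATTtctaagata
The SRC site lies at chr20:37404941-37404968 on the plus strand, and the FRK site at chr6:115933879-115933906 on the minus strand (GRCh38). LCK, YES1, FYN, LYN, FGR, CSK and PTK2B held none of the 4 words in these transcripts. Other transcripts were not searched. The LYN transcript measures 2297 bases, against 5987 in the union of all coding-transcript exons, and that of FYN 3628 against 5598. The 3′UTR of FRK measures 11265 bases, that of SRC 2671 and that of LCK 446.

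LCK, the T cell kinase (chr1:32251265-32286165), had 1 and 2 counts in the miRcontrol libraries and 0 and 2 in those of miR92b_inhibitor. It had 10 and 10 counts with miR3124_mimic, 20 and 25 with miR200b_mimic, and 59 and 50 in the mixed group. The 3 groups that hold a mimic did not overlap with each other or with the 2 groups that hold none. As normalized levels, LCK stood at 0.0883 ± 0.0439 CPM in miRcontrol, 0.0547 ± 0.0774 with miR92b_inhibitor, 0.624 ± 0.0828 with miR3124_mimic, 1.47 ± 0.0405 with miR200b_mimic and 2.98 ± 0.404 in the mixed group. The order was mixed, miR200b_mimic, miR3124_mimic, miRcontrol and miR92b_inhibitor, and of these neighbours the last 2 overlapped. The gene passed the filter on low counts only through the groups where it is high. In bulk libraries, more cells with LCK and more LCK per cell cannot be told apart.

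**Figure D1:**
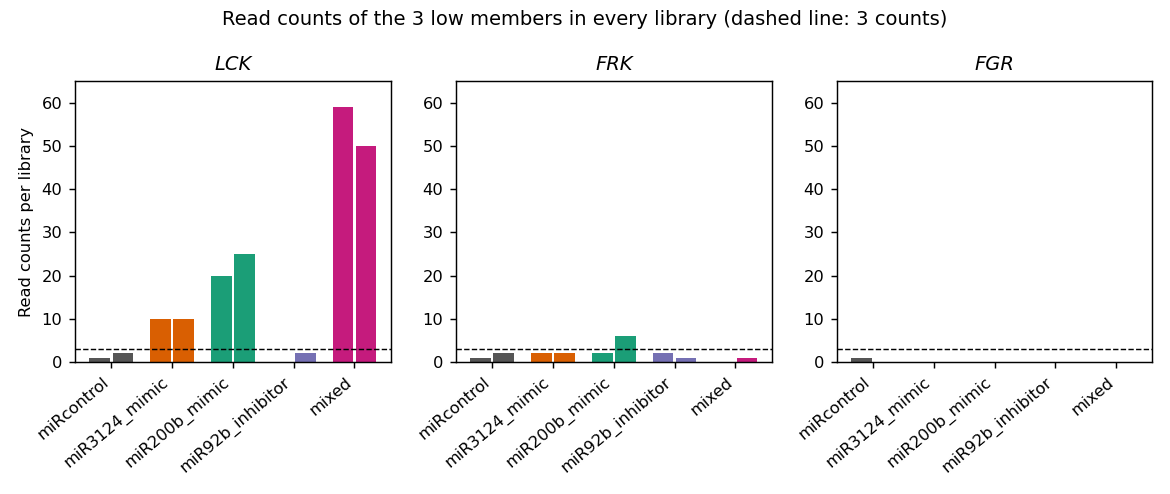
Read counts per library (y axis, linear) of LCK, FRK and FGR in the 5 groups, with 1 bar per library and a dashed line at 3 counts. LCK reaches 59 and 50 counts in the mixed group and at most 2 in miRcontrol and miR92b_inhibitor libraries, whereas FRK stays between 0 and 6 and FGR between 0 and 1.

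Because the low groups hold only 3 and 2 LCK counts in all, ratios of depth-scaled summed counts are given with exact 95% intervals, which cover counting error only. Against miRcontrol the ratio was 7.06 (2.09 to 37.1) with miR3124_mimic, 16.7 (5.36 to 84) with miR200b_mimic and 33.9 (11.3 to 167) in the mixed group. The last value became 24.9 without the first miRcontrol library and 51.9 without the second, and the other ratios to miRcontrol moved likewise, from 5.18 to 10.8 for miR3124_mimic and from 12.3 to 25.6 for miR200b_mimic. The mixed group lay above each single mimic, with a ratio of 4.8 (2.96 to 8.17) to miR3124_mimic and of 2.03 (1.42 to 2.94) to miR200b_mimic. These ratios involve the libraries that led to the choice of LCK and carry no test.

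The single-miRNA groups were also set side by side, after the data were seen and with no test, since LCK entered the fit through its high groups. The ratio of miR200b_mimic to miR92b_inhibitor was 25.9 (6.77 to 220) and that of miR3124_mimic to miR92b_inhibitor 11 (2.66 to 96.7). Without the miR92b_inhibitor library that had 0 counts, these ratios were 13.4 (3.49 to 114) and 5.65 (1.37 to 49.9). The ratio of miR200b_mimic to miR3124_mimic was 2.36 (1.37 to 4.23). When 1 library was left out, it ran from 2.14 (1.06 to 4.77) to 2.59 (1.28 to 5.76), so the lower bound came near 1.

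In absolute terms LCK stayed low. To compare genes, CPM were divided by the length in kb of the longest coding transcript. LCK then reached 1.37 CPM per kb in the mixed group, where YES1 stood at 32.3, FYN at 12.2, SRC at 11.5 and LYN at 15.9. Of the summed level of the 7 SRC-family members, LCK made up 0.0346 to 0.0714% in the miRcontrol libraries, 0.406 to 0.48% with miR3124_mimic, 0.852 to 0.89% with miR200b_mimic and 1.7 to 2.05% in the mixed group. YES1 was the most abundant member throughout, at 39.1 to 45.1% of the sum over the 10 libraries. The share of LYN depends on the length used: it was 17.6 to 18.8% in miRcontrol with the longest coding transcript and 8.76 to 9.34% with the union of all coding-transcript exons.

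**Figure D2:**
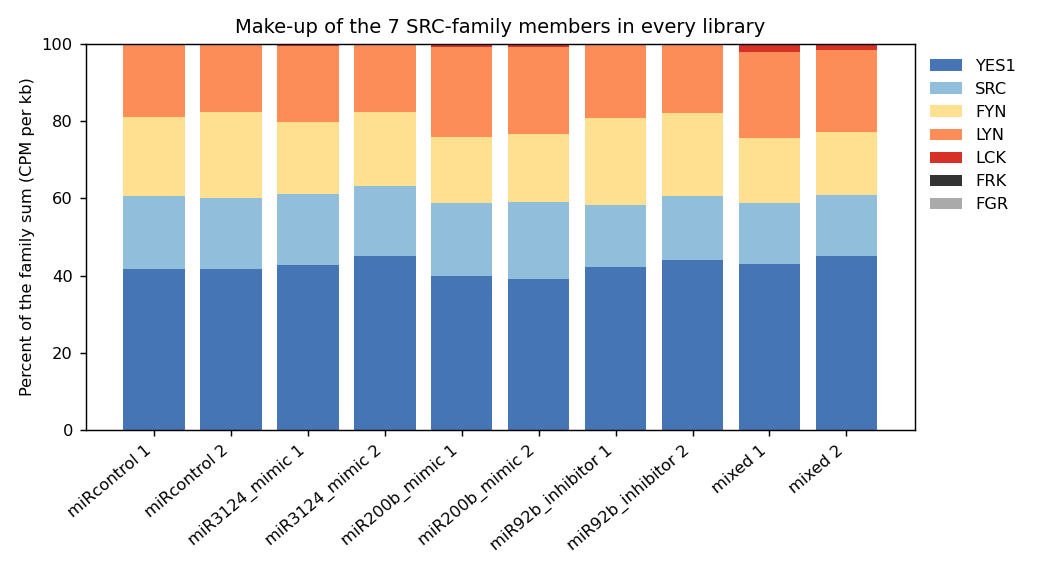
Share of each of 7 SRC-family members in their summed CPM per kb (y axis, percent) in each of the 10 libraries. YES1 fills 39.1 to 45.1% of every bar, and LCK is visible as a thin top band that reaches 2.05% in the mixed group.

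Most other T cell genes stayed near 0 in every group. Of 20 T cell markers, 17 had at most 3 counts in every library, including the receptor genes CD3D, CD3E, CD3G, CD247, TRAC, TRBC1 and TRBC2 and the co-receptors CD4 and CD8A. CD2, CD247, CD8B, TRBC1, TRBC2, LCP2 and SH2D1A had 0 counts in all 10 libraries. The summed level of the 20 was 19.3 to 20.8 CPM in miRcontrol, 24.2 to 24.8 with miR3124_mimic, 20.9 to 22.4 with miR200b_mimic, 17.4 to 19.8 with miR92b_inhibitor and 24.4 to 27 in the mixed group. Most of it was IL7R, the interleukin-7 receptor, with 18.9 ± 1.14 CPM in miRcontrol, 23.3 ± 0.193 with miR3124_mimic and 24.5 ± 1.3 in the mixed group (log2 fold change 0.30, edgeR adjusted p = 0.00618, and 0.37, 0.000739). LAT, the scaffold below the T cell receptor, had 8 to 23 counts, and ZAP70, the kinase that LCK activates in T cells, 0 to 6. ZAP70 had 5 and 2 counts in the mixed group and 3 and 6 with miR92b_inhibitor.

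Of 16 markers of other leukocytes, 7 had at most 3 counts everywhere, and PTPRC (CD45), which all leukocytes carry, had at most 2. MS4A1, NKG7, GNLY, TYROBP and AIF1 had 0 counts in all libraries. CD79A (0 to 6 counts), CD79B (0 to 10), LYZ (0 to 7), ITGAM (0 to 5), FCER1G (0 to 7) and SPI1 (1 to 17) were low as well. The summed level of the 16 was 28.2 to 29.4 CPM in miRcontrol, 38 to 38.2 with miR3124_mimic, 18.4 to 21.6 with miR200b_mimic, 42.1 to 43.5 with miR92b_inhibitor and 26 to 27.1 in the mixed group. CD68, a lysosomal protein also made outside macrophages, was 26.7 ± 0.501 CPM in miRcontrol and 39.7 ± 1.32 with miR92b_inhibitor. CD14, the lipopolysaccharide co-receptor, rose from 1.12 ± 0.446 to 12.5 ± 0.22 CPM with miR3124_mimic (log2 fold change 3.49, edgeR adjusted p = 7.96e-18), and CSF1R had 11 and 15 counts there against 2 and 3. Most of the leukocyte sum was CD68, which was 18.5 ± 1.78 CPM with miR200b_mimic, the group with the lowest sum.

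The position of LCK was looked at next. LCK is known to be transcribed from a distal and a proximal promoter, and counts per gene do not tell which start was used. Both windows of the RefSeq table (GRCh38.p14, plus strand) are shown, from 250 bases before a start to 30 bases from it on. Capitals mark CAGGTG, the E-box word that ZEB1, ZEB2 and SNAI2 are known to bind. It was chosen after the data were seen and was searched on both strands as CAGGTG or CACCTG.
LCK, chr1:32251015-32251294: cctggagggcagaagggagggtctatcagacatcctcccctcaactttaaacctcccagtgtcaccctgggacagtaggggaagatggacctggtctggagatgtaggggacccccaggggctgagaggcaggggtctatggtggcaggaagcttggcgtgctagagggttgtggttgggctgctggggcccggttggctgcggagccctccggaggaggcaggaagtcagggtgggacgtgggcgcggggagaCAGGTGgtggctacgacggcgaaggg
LCK, chr1:32273871-32274150: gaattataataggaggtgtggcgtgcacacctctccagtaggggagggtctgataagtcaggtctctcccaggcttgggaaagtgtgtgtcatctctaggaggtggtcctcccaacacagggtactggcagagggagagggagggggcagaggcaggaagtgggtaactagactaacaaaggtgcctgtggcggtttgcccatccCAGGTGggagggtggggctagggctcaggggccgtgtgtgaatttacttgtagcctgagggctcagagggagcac
Each window held 1 such word, and 19.2% of all 35116 promoter windows of 280 bases held at least 1. The letters are a description and not a binding site. Among the mesenchymal markers, ZEB1 fell from 63.1 ± 0.281 CPM in miRcontrol to 25.7 ± 0.192 with miR200b_mimic and 29.1 ± 0.908 in the mixed group, and was 57.9 ± 2.16 with miR3124_mimic. ZEB2 fell from 32.3 ± 2.1 CPM to 6.7 ± 0.361 and 10.2 ± 0.158 in the same 2 groups and rose to 46.5 ± 0.916 with miR3124_mimic, where LCK was also above the control. SNAI2 went the other way in these groups. It rose from 23.2 ± 0.15 CPM to 43.7 ± 0.885 with miR200b_mimic and 33.3 ± 0.718 in the mixed group, and fell to 10.7 ± 0.678 with miR3124_mimic. With miR92b_inhibitor it was 35.5 ± 2.15 CPM. The part of ZEB1, ZEB2 and SNAI2 in the level of LCK was not tested. Of 9 tested epithelial markers, 7 rose and 0 fell with miR200b_mimic, 5 rose and 2 fell in the mixed group, 2 rose and 1 fell with miR3124_mimic, and 0 rose and 3 fell with miR92b_inhibitor. Of 11 tested mesenchymal markers, 2 rose and 7 fell, 3 rose and 6 fell, 4 rose and 2 fell, and 4 rose and 3 fell in the same order. The 2 that fell with miR3124_mimic were SNAI2 and VIM, and VIM went from 3800 ± 132 to 813 ± 20.1 CPM (log2 fold change -2.23). Of all genes, 21.4% were called higher and 19.1% lower with miR200b_mimic, 21.5% and 21.1% in the mixed group, 25.7% and 25.3% with miR3124_mimic, and 17.5% and 18.2% with miR92b_inhibitor. CRB3, CDH1 and EPCAM, which rose with miR200b_mimic and in the mixed group, stood at 0.0585, 0.146 and 0.289 CPM in miRcontrol. Genes this low pass the filter on low counts only through groups where they are higher, so the filter favoured these calls. The counts of epithelial rises are therefore a description and no test against the share of all genes.

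Genes that start within 100 kb of the LCK start were compared with it. FAM167B, whose gene ends nearest upstream of LCK, had 18 and 14 counts in miRcontrol, 36 and 69 with miR3124_mimic and at most 13 in every other library. It rose with miR3124_mimic (log2 fold change 1.77 ± 0.355 SE, edgeR adjusted p = 3.71e-05) and was 0.598 ± 0.212 CPM with miR200b_mimic and 0.574 ± 0.127 in the mixed group against 0.933 ± 0.138 in miRcontrol. HDAC1, the histone deacetylase gene downstream of LCK, rose slightly with miR3124_mimic (log2 fold change 0.34, edgeR adjusted p = 5.9e-10), miR200b_mimic (0.12, 0.0202) and the mixture (0.17, 0.000664). MARCKSL1, an actin-binding protein, fell with miR200b_mimic (-0.43), miR92b_inhibitor (-0.40) and the mixture (-0.57). TXLNA, a syntaxin partner, was not called in any comparison with miRcontrol, with changes of -0.10 to -0.01. EIF3I, a translation initiation factor subunit, fell with miR3124_mimic (-0.24, edgeR adjusted p = 1.25e-06) and rose with miR92b_inhibitor (0.24, 1.69e-06), and CCDC28B rose with miR3124_mimic (0.50, 0.0226). IQCC, TMEM234 and the pseudogene MTMR9LP were not called against miRcontrol, and DCDC2B and LOC105378629 did not pass the filter. Neither FAM167B nor MARCKSL1 had the group order of LCK.

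Over the 10 libraries, the genes whose log2 CPM was most like that of LCK by Pearson correlation were SAMD4A (0.989), SIX4 (0.987), CCDC186 (0.983), CAV2 (0.981) and CDK6 (0.977), among 14884 genes. The points share libraries and groups, and the values are a description. A prior count of 2 went into the log2 CPM, and LCK had at most 2 counts in each miRcontrol and miR92b_inhibitor library. Its low values, and with them these correlations, therefore depend on that prior. CDK6, a cell cycle kinase, stood at 249 ± 9.61 CPM in miRcontrol, 268 ± 1.83 with miR92b_inhibitor, 433 ± 21.3 with miR3124_mimic, 599 ± 5.32 with miR200b_mimic and 680 ± 3.58 in the mixed group, the order of LCK but for the first 2. CAV2, a caveolin, went from 113 ± 0.954 CPM in miRcontrol to 144 ± 3.35, 159 ± 2.66 and 167 ± 4.93 in the miR3124_mimic, miR200b_mimic and mixed groups. Of the other members, PTK2B came nearest, with a correlation of 0.928, and FYN was the most opposite, with -0.858.

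PTK2B (chr8:27310506-27459391) changed most among the members that were tested. The 2 libraries read 9.39 and 8.95 CPM in miRcontrol, 11.9 and 13 with miR3124_mimic, 26.6 and 27.4 with miR200b_mimic, 8.23 and 8.49 with miR92b_inhibitor, and 23.7 and 22.9 in the mixed group. No 2 groups overlapped. PTK2B rose with miR200b_mimic (log2 fold change 1.56 ± 0.104 SE, edgeR adjusted p = 3.06e-17), in the mixed group (1.34 ± 0.104, 4.66e-15) and, less, with miR3124_mimic (0.44 ± 0.118, 0.00137). The change with miR92b_inhibitor was -0.13 ± 0.125 (adjusted p = 0.442). The mixed group lay below miR200b_mimic by 0.21 ± 0.0889, which missed the threshold (adjusted p = 0.0511), and above miR3124_mimic by 0.90 ± 0.0998 (adjusted p = 1.65e-10). Per kb PTK2B moved from 1.94 to 5.72 CPM with miR200b_mimic, still below SRC at 15.2.

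**Figure D3:**
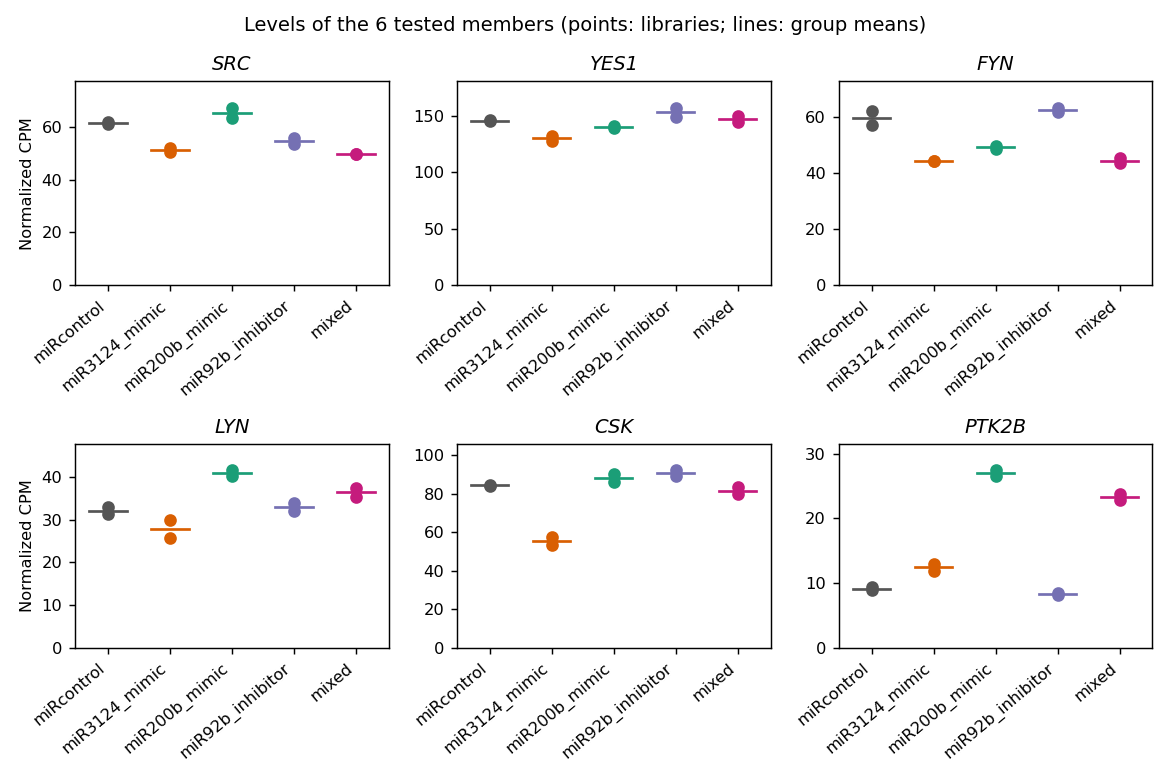
Normalized CPM (y axis, from 0) of SRC, YES1, FYN, LYN, CSK and PTK2B, with a point per library and a line at each group mean. PTK2B is at 26.6 and 27.4 CPM with miR200b_mimic against 8.95 and 9.39 in miRcontrol, and CSK is at 53.2 and 57.7 CPM with miR3124_mimic against 83.9 and 84.5.

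CSK, the kinase that restrains the family (chr15:74782080-74803197), fell with miR3124_mimic alone and was near the control in the mixed group. It read 83.9 and 84.5 CPM in the miRcontrol libraries and 53.2 and 57.7 CPM with miR3124_mimic, a log2 fold change of -0.60 ± 0.0552 SE (edgeR adjusted p = 5.49e-13). With miR200b_mimic it was 88.1 ± 2.98 CPM, with miR92b_inhibitor 90.6 ± 2.07 and in the mixed group 81.6 ± 2.57, with adjusted p of 0.322, 0.105 and 0.506 against miRcontrol. The mixed group, which also holds the miR-3124-5p mimic, exceeded miR3124_mimic by 0.55 ± 0.055 (adjusted p = 7.35e-12). CSK over the summed family, both per kb of the longest coding transcript only, was 0.397 in both miRcontrol libraries and 0.293 to 0.324 with miR3124_mimic. It was 0.399 to 0.418 with miR200b_mimic, 0.417 to 0.424 with miR92b_inhibitor and 0.394 to 0.41 in the mixed group. That ratio was computed after the data were seen.

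FYN (chr6:111660332-111873452) was lower in all 3 groups that received a mimic. It stood at 59.6 ± 3.5 CPM in miRcontrol, 44.3 ± 0.014 with miR3124_mimic, 49.1 ± 0.832 with miR200b_mimic, 62.4 ± 1.14 with miR92b_inhibitor and 44.3 ± 1.2 in the mixed group. The log2 fold changes against miRcontrol were -0.43 ± 0.0615 (edgeR adjusted p = 8.14e-08), -0.28 ± 0.0611 (0.000213), 0.07 ± 0.0577 (0.404) and -0.43 ± 0.0603 (7.9e-08). The mixed and miR3124_mimic libraries overlapped, and those of the mixed group lay below those of miR200b_mimic by 0.15 ± 0.0631 (adjusted p = 0.0558).

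SRC (chr20:37344699-37406050) was lowest in the mixed group. Its 2 libraries there read 49.8 and 49.6 CPM, against 61.7 and 60.9 CPM in miRcontrol, a log2 fold change of -0.30 ± 0.0578 SE (edgeR adjusted p = 2.49e-05). It also fell with miR3124_mimic, to 51.2 ± 0.885 CPM (-0.26 ± 0.0588, adjusted p = 0.000204). It fell with miR92b_inhibitor to 54.6 ± 1.61 CPM (-0.17 ± 0.0573, adjusted p = 0.0205), but this call was lost with DESeq2 and in 3 of the 4 fits that left out 1 library, those without either miRcontrol library (adjusted p = 0.107 and 0.063) or without the first miR92b_inhibitor library (0.16). Over 12 alternatives the adjusted p ranged from 0.0155 to 0.16. With miR200b_mimic SRC was 65.2 ± 2.78 CPM (adjusted p = 0.202), and the mixed group lay below it by 0.40 ± 0.0582 (adjusted p = 2.65e-07).

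LYN (chr8:55879835-56014169) moved in opposite directions with the 2 mimics. It stood at 32 ± 1.16 CPM in miRcontrol, 27.8 ± 2.9 with miR3124_mimic and 40.9 ± 0.91 with miR200b_mimic. The rise with miR200b_mimic was 0.35 ± 0.0754 on the log2 scale (edgeR adjusted p = 0.000163). The fall with miR3124_mimic was -0.21 ± 0.0796 (adjusted p = 0.0231), a call lost with DESeq2 (0.0994), without the first miRcontrol library (0.155) and without the second miR3124_mimic library (0.415), over a range of 0.00504 to 0.415. The 2 mimic groups differed by 0.56 ± 0.078 (adjusted p = 2.77e-08). In the mixed group LYN was 36.4 ± 1.51 CPM, 0.18 ± 0.0747 above miRcontrol (adjusted p = 0.042), but the call was lost in 6 of 12 alternatives, including all 4 that left out a library, with adjusted p from 0.0263 to 0.243.

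YES1 (chr18:721588-812753), the most abundant member, changed least. It stood at 145 ± 0.824 CPM in miRcontrol and 130 ± 3.16 with miR3124_mimic, a log2 fold change of -0.16 ± 0.0442 (edgeR adjusted p = 0.00279). With miR200b_mimic it was 140 ± 1.32 CPM, with miR92b_inhibitor 153 ± 5.87 and in the mixed group 147 ± 4.58, with adjusted p of 0.414, 0.151 and 0.794.

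FRK (chr6:115931149-116100725) and FGR (chr1:27612064-27635185) did not pass the filter and were not tested. FRK had 1 and 2 counts in miRcontrol, 2 and 2 with miR3124_mimic, 2 and 6 with miR200b_mimic, 2 and 1 with miR92b_inhibitor, and 0 and 1 in the mixed group. FGR had 1 count in all, in a miRcontrol library. In CPM, the FRK libraries of miR200b_mimic lay above and those of the mixed group below all others. The gap below was as small as 0.0538 in the mixed group against 0.0547 with miR92b_inhibitor. Counts this low do not allow a difference to be told for either gene.

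The member counts can be read against the share of all tested genes called in the same comparison, as 6 members were tested without LCK. With miR3124_mimic against miRcontrol, 1 rose (PTK2B) and 5 fell (CSK, FYN, LYN, SRC, YES1), beside a background of 25.7% of genes called higher and 25.3% called lower. The median log2 fold change of the 6 was -0.24, and that of all tested genes 0.00389. With miR200b_mimic, 2 rose (LYN, PTK2B) and 1 fell (FYN), against 21.4% and 19.1%, with a median of 0.08. With miR92b_inhibitor, 0 rose and 1 fell (SRC), against 17.5% and 18.2%, with a median of 0.05. At an unadjusted p under 0.05, 1 member was higher and 1 lower there with edgeR, and DESeq2 called 0 after adjustment. In the mixed group, 2 rose (LYN, PTK2B) and 2 fell (FYN, SRC), against 21.5% and 21.1%, with a median of -0.01. All 4 comparisons share the miRcontrol libraries.

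**Figure D4:**
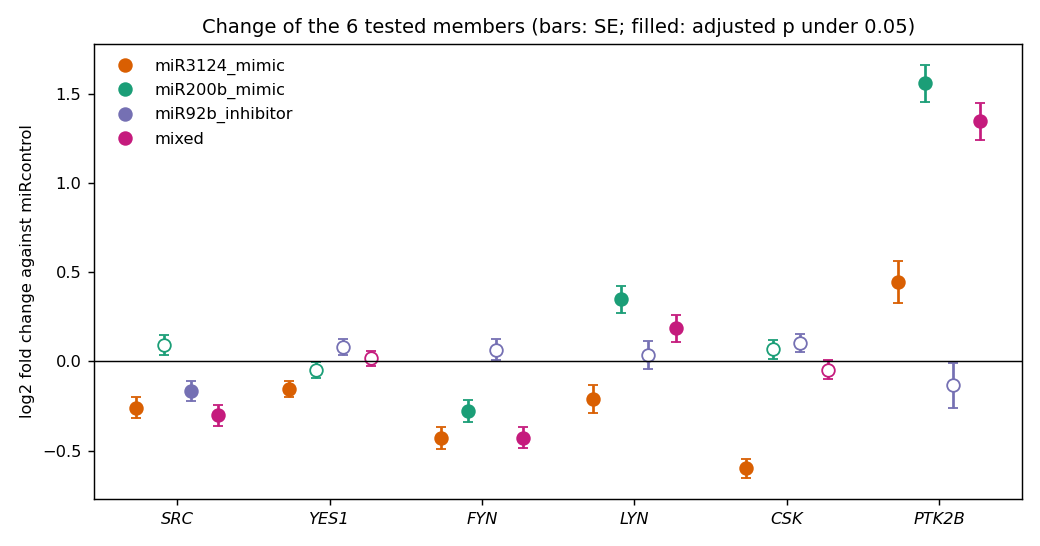
Log2 fold change against miRcontrol (y axis) of the 6 tested members in the 4 transfected groups, with bars for the SE and filled points for an edgeR adjusted p under 0.05. With miR3124_mimic, 5 of 6 points lie below 0, and PTK2B reaches 1.56 with miR200b_mimic and 1.34 in the mixed group.

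The mixed group was then set against each of its parts. Against miR3124_mimic, 4 members were higher (CSK, LYN, PTK2B, YES1) and 0 lower (0 also at an unadjusted p under 0.05 with edgeR), beside 25.3% and 23.8% of all genes. LYN was higher by 0.40 ± 0.0773 on the log2 scale (edgeR adjusted p = 2.79e-05) and YES1 by 0.17 ± 0.0438 (0.000964). Against miR200b_mimic, 0 were higher and 1 lower (SRC), beside 18.2% and 20.4%, and at an unadjusted p under 0.05 the edgeR counts were 0 and 5. Against miR92b_inhibitor, 1 was higher (PTK2B, by 1.48 ± 0.105) and 2 lower (FYN, by -0.49 ± 0.0596, and CSK, by -0.15 ± 0.0506), beside 19.7% and 19.9%. The CSK call (adjusted p = 0.0144) was lost in 3 of 12 alternatives, among them the fits without the second miR92b_inhibitor library (0.128) and without the second mixed library (0.14), with a range of 0.0105 to 0.14.

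The single groups were compared with each other after the data were seen. Between miR200b_mimic and miR3124_mimic, 6 of 6 members were higher with miR200b_mimic and 0 lower (edgeR, 0 also at an unadjusted p under 0.05), beside 29.9% and 27.9% of all genes. CSK (log2 difference 0.67 ± 0.0556), LYN (0.56), PTK2B (1.11) and SRC (0.35) carried it, while the calls of FYN (0.15, edgeR adjusted p = 0.0427) and YES1 (0.11, 0.0381) were lost in 9 and 7 of 12 alternatives, with ranges of 0.0275 to 0.158 and 0.0209 to 0.19. Without the second miR3124_mimic library, for example, FYN had an adjusted p of 0.118. Against miR92b_inhibitor, 1 member was higher (PTK2B) and 4 lower (CSK, FYN, LYN, YES1) with miR3124_mimic, beside 29.5% and 29.4%. The LYN call there was lost without the second miR3124_mimic library (adjusted p = 0.229) or the first miR92b_inhibitor library (0.0651), with a range of 0.00142 to 0.229. With miR200b_mimic, 3 were higher (LYN, PTK2B, SRC) and 2 lower (FYN, YES1) than with miR92b_inhibitor, beside 25.6% and 24.8%. The YES1 call there was lost without the second library of either group (adjusted p = 0.0946 and 0.19), with a range of 0.00427 to 0.19.

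Genes that act with the family were taken from lists chosen with earlier results of these data known. Of 13 further kinases near the family, 5 were tested and 7 had at most 3 counts in every library, among them the SRC-family gene BLK. ABL1, a cytoplasmic tyrosine kinase, fell from 151 ± 6.33 CPM to 46.8 ± 1.74 with miR3124_mimic (log2 fold change -1.69 ± 0.0512, edgeR adjusted p = 1.51e-30) and to 74.6 ± 0.0679 in the mixed group (-1.01 ± 0.0467, 3.07e-23). It was 150 ± 0.874 with miR200b_mimic and 150 ± 2.31 with miR92b_inhibitor. PTK2 (FAK), the close relative of PTK2B, rose from 264 ± 2.53 CPM to 338 ± 2.83 with miR3124_mimic, 334 ± 1.71 with miR200b_mimic and 319 ± 6.74 in the mixed group. ABL2 rose in all 4 groups, by 0.15 to 0.38 on the log2 scale, and TEC fell with miR92b_inhibitor (-0.55). The counts of kinases called higher and lower were 2 and 1 with miR3124_mimic (all genes: 25.7% and 25.3%), 2 and 0 with miR200b_mimic (21.4% and 19.1%), 1 and 1 with miR92b_inhibitor (17.5% and 18.2%) and 2 and 1 in the mixed group (21.5% and 21.1%). The median log2 fold changes of the 5 were 0.15, 0.21, -0.08 and 0.14 in that order, beside medians of all tested genes of 0.00389, -0.0055, -0.00611 and 0.003.

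Of 24 regulators of the family, 22 were tested, and 2 had at most 3 counts everywhere. With miR3124_mimic 7 rose and 7 fell (all genes: 25.7% and 25.3%), with miR200b_mimic 6 and 7 (21.4% and 19.1%), with miR92b_inhibitor 5 and 2 (17.5% and 18.2%), and in the mixed group 7 and 7 (21.5% and 21.1%), with medians of 0.02, -0.14, 0.04 and -0.01. PTPRE, a receptor phosphatase that can activate SRC, rose in all 4 groups, most with miR3124_mimic, from 9.51 ± 0.793 to 24.4 ± 2.41 CPM (log2 fold change 1.35, edgeR adjusted p = 5.13e-15). PAG1, the membrane adaptor that recruits CSK, rose there from 9.59 ± 0.532 to 20.7 ± 1.95 CPM (1.10, 1.3e-10), and PTPRJ by 0.57. NMT2, which attaches the myristate that anchors SRC-family kinases, fell from 180 ± 0.901 CPM to 83.5 ± 6.21 with miR3124_mimic, 115 ± 11.5 with miR200b_mimic and 74.9 ± 3.02 in the mixed group (-1.11, -0.66 and -1.27). The mixed group lay below miR3124_mimic by 0.16 (adjusted p = 0.0192) and below miR200b_mimic by 0.61 (1.77e-12). HSP90AA1, the chaperone of client kinases, fell from 2950 ± 47.8 CPM to 2010 ± 19, 1610 ± 133 and 1900 ± 22.5 in the same 3 groups, and PTPN11 (SHP2) fell by 0.70 on the log2 scale with miR3124_mimic. PTPN6 (SHP1), best known from blood cells, rose from 2.32 ± 1.02 CPM to 4.6 ± 0.158 with miR200b_mimic and 4.59 ± 0.474 in the mixed group (0.99 in each, adjusted p = 0.000939 and 0.000678). With miR92b_inhibitor PTPRA, another activator of SRC, fell by 0.35 and PTPN2 rose by 0.39.

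**Figure D5:**
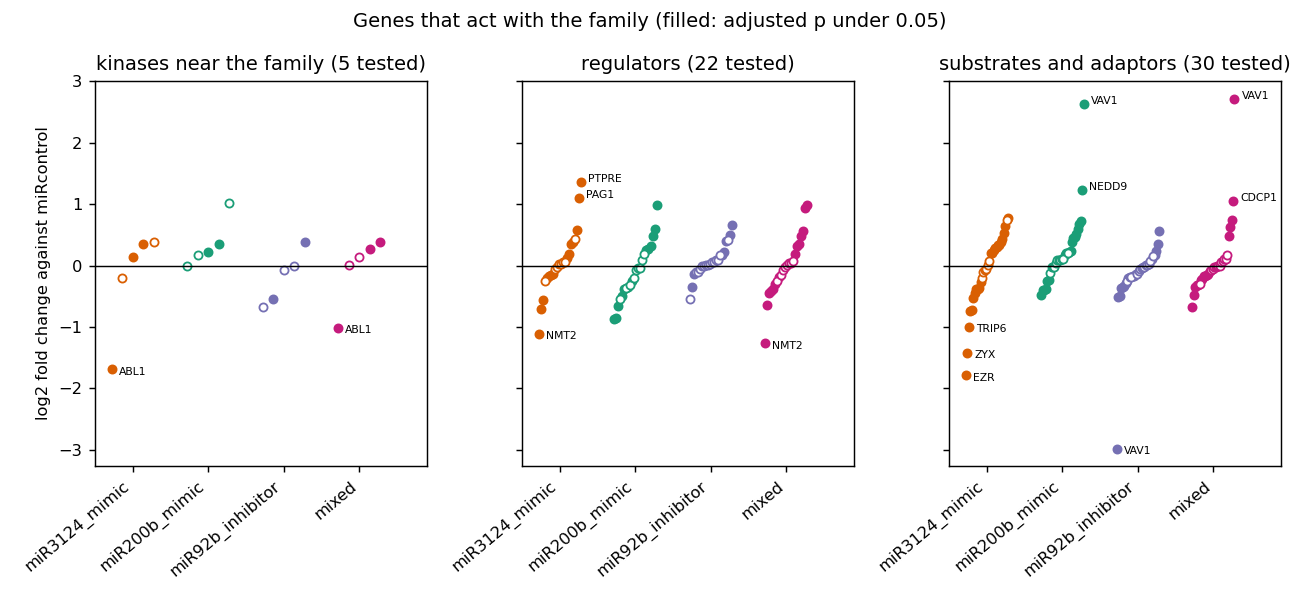
Log2 fold change against miRcontrol (y axis) of the tested genes of 3 lists, kinases near the family, regulators, and substrates and adaptors, in the 4 transfected groups, with filled points for an edgeR adjusted p under 0.05 and names for called genes beyond 1 in either direction. ABL1, EZR and ZYX lie lowest with miR3124_mimic, and VAV1 lies highest with miR200b_mimic and in the mixed group; its low point with miR92b_inhibitor rests on 2 counts.

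Of 34 substrates and adaptors, 30 were tested. With miR3124_mimic 12 rose and 11 fell (all genes: 25.7% and 25.3%), with miR200b_mimic 13 and 6 (21.4% and 19.1%), with miR92b_inhibitor 5 and 11 (17.5% and 18.2%), and in the mixed group 5 and 12 (21.5% and 21.1%), with medians of -0.02, 0.11, -0.11 and -0.04. VAV1, an exchange factor of blood cells phosphorylated below LCK in T cells, had 12 and 5 counts in miRcontrol, 10 and 17 with miR3124_mimic, 36 and 60 with miR200b_mimic, 1 and 1 with miR92b_inhibitor, and 69 and 52 in the mixed group. It rose with miR200b_mimic (log2 fold change 2.63 ± 0.386, edgeR adjusted p = 1.99e-07) and in the mixed group (2.72 ± 0.376, 4.86e-08), and these 2 groups overlapped. The ratios of summed counts to miRcontrol were 6.28 (exact 95% interval 3.73 to 11.2) and 6.64 (3.98 to 11.8). Without the first miRcontrol library they were 10.5 (4.33 to 32.9) and 11.1 (4.61 to 34.7), and without the second 4.54 (2.49 to 9.1) and 4.8 (2.65 to 9.56). With miR92b_inhibitor VAV1 was at 0.114 of miRcontrol (0.0127 to 0.479, from 2 and 17 counts), and at 0.189 (0.018 to 1.16) without the first miRcontrol library. CDCP1, a membrane protein that SRC phosphorylates, rose in all 4 groups, from 282 ± 4.01 CPM to 354 ± 0.108 with miR3124_mimic, 450 ± 19.3 with miR200b_mimic, 358 ± 5.35 with miR92b_inhibitor and 582 ± 5.61 in the mixed group. The mixed level was above that of miR200b_mimic by 0.37 ± 0.0358 (adjusted p = 8.23e-12).

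EZR, ZYX and TRIP6 fell most among the substrates with miR3124_mimic. EZR (ezrin), the linker of membrane and actin, read 880 and 888 CPM in miRcontrol, 259 and 253 with miR3124_mimic and 549 and 560 in the mixed group (log2 fold change -1.79 ± 0.0363 and -0.67 ± 0.0342, edgeR adjusted p = 2.15e-37 and 1.11e-21). With miR200b_mimic it rose to 1260 ± 27.7 CPM. ZYX (zyxin) fell from 253 ± 7.64 to 94 ± 1.84 CPM with miR3124_mimic and to 182 ± 0.529 in the mixed group, and TRIP6 from 142 ± 5.55 to 70.9 ± 0.3 and 111 ± 2.68 CPM. STAT3, a transcription factor that SRC can phosphorylate, rose from 123 ± 0.537 CPM to 191 ± 4.09, 203 ± 8.69 and 172 ± 1.23 with miR3124_mimic, miR200b_mimic and the mixture. TNS1 (tensin) rose with miR3124_mimic (0.77) and fell with miR200b_mimic (-0.39) and miR92b_inhibitor (-0.50). NEDD9, a docking protein of the CAS family, rose from 2.01 ± 0.23 to 4.71 ± 0.42 CPM with miR200b_mimic, and LPXN (leupaxin), a partner of PTK2B, rose with miR92b_inhibitor (0.57) and in the mixed group (0.74). EZR, ZYX, ABL1 and CSK were each higher in the mixed group than with miR3124_mimic, by 1.12, 0.95, 0.68 and 0.55 on the log2 scale (adjusted p = 7.49e-29, 3.43e-23, 1.91e-14 and 7.35e-12), whereas FYN and SRC were not called between these groups (adjusted p = 0.997 and 0.595).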

How the data were processed

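The authors trimmed mRNA-sequencing reads, mapped them with TopHat (version not given in the sources used here) to GRCh38, per the labels, and deposited raw read counts per gene for each of 10 libraries, without normalization. The counting tool, its annotation and its strand setting are not given in the sources used here, so overlapping genes on opposite strands may share counts. The files hold 58173 rows each, and in 5771 of them the symbol had occurred before. Counts of repeated symbols were summed, and each member has 1 row. From these counts, edgeR 4.0.16 with limma 3.58.1 (R 4.3.3) fitted all 5 groups in 1 quasi-likelihood model without covariates, after filterByExpr and RLE normalization. The common dispersion was 0.000751. The script was tested on simulated data.

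The members and lists were chosen with earlier results of these data known. LCK was left untested in every comparison with the mixed group, as planned. It was also left untested in all others, since it was chosen by its rise over miRcontrol and passed the filter through its high groups. The 3 comparisons among single-miRNA groups and the ratios with exact counting intervals for LCK and VAV1 were added after the data were seen, the latter in place of bounds from 3 counts per library. Besides the members, the genes named were up to 3 called genes at each end of each list and comparison, immune markers above 3 counts, genes starting within 100 kb of LCK, and the 5 most like LCK. Other marker genes, BLK, and some values of these genes in further groups were chosen after their values were seen. Sequences came from RefSeq and GENCODE v29 tables, in which 9 of 9 members had a transcript and 6 of 9 a promoter window.

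A chi-square comparison of raw counts gave 1.75 to 2.63 per degree of freedom between the 2 libraries of a group, so they differed beyond counting error and were kept as 2. The alternatives were TMM, library totals only, DESeq2 1.42.0, edgeR's exact test, a fit of the 2 groups compared, no filter, a minimum of 10 counts throughout, the replicate number as a block, and fits without 1 library. A few items withheld from the text are not reported here.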

Additional observations from a re-analysis of the deposited data

How the results depend on the processing

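Of the 120 recomputed counts of called members, 114 stayed within 1.5 times the reported count, as did all 120 counts of called genes. With miR92b_inhibitor against miRcontrol, 0 members were called with DESeq2 and 0 to 1 when 1 library was left out, against 1 reported. In the mixed group against miR200b_mimic, 2 were called by edgeR's exact test and 2 in the fit of only these groups, against 1 reported, PTK2B being the added gene. Uncalled changes near 0 turned sign: FYN in the mixed group against miR3124_mimic was -0.0107 with library totals only and -0.0124 with a minimum of 10 counts throughout, and -0.0232 to 0.0301 with a library left out. With a library left out, LYN with miR92b_inhibitor ran from -0.00241 to 0.0786 and YES1 in the mixed group from -0.017 to 0.049. The cause was not tested. Of 720 recomputed changes of the 6 tested members, 36 lost the threshold, 2 gained it and 6 turned sign. Differences within groups correlated at -0.0695 to 0.0598 over 10419 genes, so no shift shared by equal replicate numbers was seen. Pairing with little shared shift would look the same, so these values do not show whether libraries were paired. With a replicate block, 6 members were called with miR3124_mimic, 3 with miR200b_mimic, 1 with miR92b_inhibitor and 4 in the mixed group, as without it. Other scalings moved the median of all genes by under 0.05 (log2). LCK, FRK and FGR are limited by depth.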
